A study of Mus musculus with 2 samples.

Results

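TGF-beta signalling was followed here through 10 genes in mouse dorsal skin, in single cells from skin treated with topical imiquimod and from control skin. The 10 genes were taken by name from the 27998 genes counted. They are the ligands Tgfb1, Tgfb2 and Tgfb3, the receptors Tgfbr1, Tgfbr2 and Tgfbr3, the activin subunit Inhba, the latent-binding protein family member Ltbp2, the inhibitory Smad gene Smad7 and the target gene Tgfbi. The IMQ library came from wild-type C57BL/6 mice of 2 months that received imiquimod, an agonist of Toll-like receptor signalling, on the back skin each day for 5 days. The Ctrl library came from wild-type C57BL/6 mice of the same age without imiquimod. The study's design text gives the mice as female. Each group was 1 library, and the number of animals in a library is not given in the sources used here. Every difference below is therefore a difference between these 2 libraries, with no replicate check and no test.

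TGF-beta ligands are secreted in latent complexes, bound to latent TGF-beta binding proteins in the matrix, and are set free by integrins, proteases or thrombospondin-1. The active ligand binds Tgfbr2, which recruits and activates the kinase Tgfbr1, and Smad2 and Smad3 then carry the signal to the nucleus, where Smad7 is among the induced genes and acts as a brake. In skin, TGF-beta is known to restrain keratinocyte growth, to drive matrix production by fibroblasts and to be needed by Langerhans cells. Activins, dimers of inhibin beta subunits such as that encoded by Inhba, signal through related receptors to the same Smads.

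The IMQ library held 9414 cell barcodes and 144054978 UMIs, and the Ctrl library held 10857 barcodes and 123088680 UMIs. After filtering and doublet removal 8389 IMQ and 9875 Ctrl cells remained, with a median of 12543 UMIs per IMQ cell and 9468 UMIs per Ctrl cell, and 23 barcodes occurred in both libraries. The doublet caller marked 1.29% of IMQ cells, where 6.8% were expected from the cell number, and 4.1% of Ctrl cells, where 8.24% were expected, so doublets may remain in both. The cells fell into 37 clusters, named by marker genes as classes called "-like", and 13 classes had at least 30 cells in each library. Each of these classes expressed its own defining markers, with 1 of 8 muscle markers at 0. This follows in large part from naming by these markers and is no separate check of the names. Fibroblast-like cells (3764 IMQ, 6861 Ctrl) and keratinocyte-like cells (2135 IMQ, 1596 Ctrl) were the most numerous.

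Levels are given as CPM, a gene's UMIs scaled to the summed UMIs of all cells of a class in a library. Intervals are 95% and cover counting error only. A gene counted as measured in a class with at least 20 UMIs over both libraries. It was called higher or lower in IMQ if its level differed by at least 2-fold and the interval of the ratio left out equality. Calls were made in 9 classes: those with at least 100 cells in each library, plus macrophage/monocyte-like cells (522 IMQ, 85 Ctrl) and lymphatic endothelial-like cells (175 IMQ, 52 Ctrl). The last 2 classes were exceptions to the plan, under which classes with fewer than 100 cells in a library were given as values only. Their calls rest on fewer Ctrl cells than the plan asked for. No calls were made in muscle-like cells (90 IMQ, 79 Ctrl), which also fell below that limit. Free RNA, the RNA of other cells that enters each droplet, was estimated per class from the markers of other cell types. The estimate also counts such markers from doublets or misplaced cells and cannot tell these sources apart. As a share of the library's level, it ran in Ctrl from 1.67% in endothelial-like to 12.9% in dendritic-like cells.

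The target gene Tgfbi was lower in IMQ in fibroblast-like cells and higher in macrophage/monocyte-like cells. The activin subunit gene Inhba was detected in IMQ macrophage/monocyte-like cells and had 0 UMIs in those of Ctrl. Tgfb3 and, at low levels, Inhba were higher in IMQ keratinocyte-like cells, but in the 2 clusters of that class described below with cells from both libraries Tgfb3 was at close levels. No receptor gene was called in fibroblast-like or keratinocyte-like cells, and Smad7 was called in none of the 9 classes.

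In fibroblast-like cells all 10 genes were measured. None was higher and 1, Tgfbi, was lower, where 11.5% and 3.9% of the 14626 measured genes were higher and lower. In keratinocyte-like cells 3 of 10 were higher, Tgfb3, Ltbp2 and Inhba, and none was lower, beside 11.8% and 11.2% of 14114 genes. In macrophage/monocyte-like cells 8 were measured, of which Tgfbr3, Tgfbi and Inhba were higher and Tgfbr2 was lower, beside 6.35% and 9.95% of 8279 genes. The median log2 ratio of the measured members was -0.09 in fibroblast-like, 0.07 in keratinocyte-like and 1.10 in macrophage/monocyte-like cells. The last class held 2766889 UMIs in IMQ and 369863 UMIs in Ctrl, so the rule for measured genes favoured genes high in IMQ. Inhba, Tgfbr3 and Tgfb2, at 0, 2.70 and 2.70 CPM in Ctrl, were measured there mainly through their IMQ UMIs. The median of 1.10 and the count of higher members in that class are therefore not read as a rise of the whole set.

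In pericyte/smooth muscle-like cells 1 of 9 was higher, Tgfb3, and 1 was lower, Tgfbi, beside 8.2% and 6.5% of all measured genes. In Schwann-like cells 1 of 7 was higher, Tgfb2, and 1 was lower, Tgfb1, beside 4.3% and 2.26%. In T cell-like cells Tgfbr1 was lower and none of 6 was higher, beside 6.51% lower and 9.16% higher. In natural killer-like cells none of the 4 measured was called, beside 8.01% higher and 6.48% lower. In lymphatic endothelial-like cells Tgfb2 and Tgfbi of 8 were lower and none was higher, beside 2.21% lower and 5.28% higher. In dendritic-like cells Inhba was higher and Tgfbr2 and Tgfbr3 were lower, of 7, beside 7.94% and 14.5%. Every one of these counts is 3 genes or fewer, and each gene is described by its own values in what follows.

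**Figure D1:**
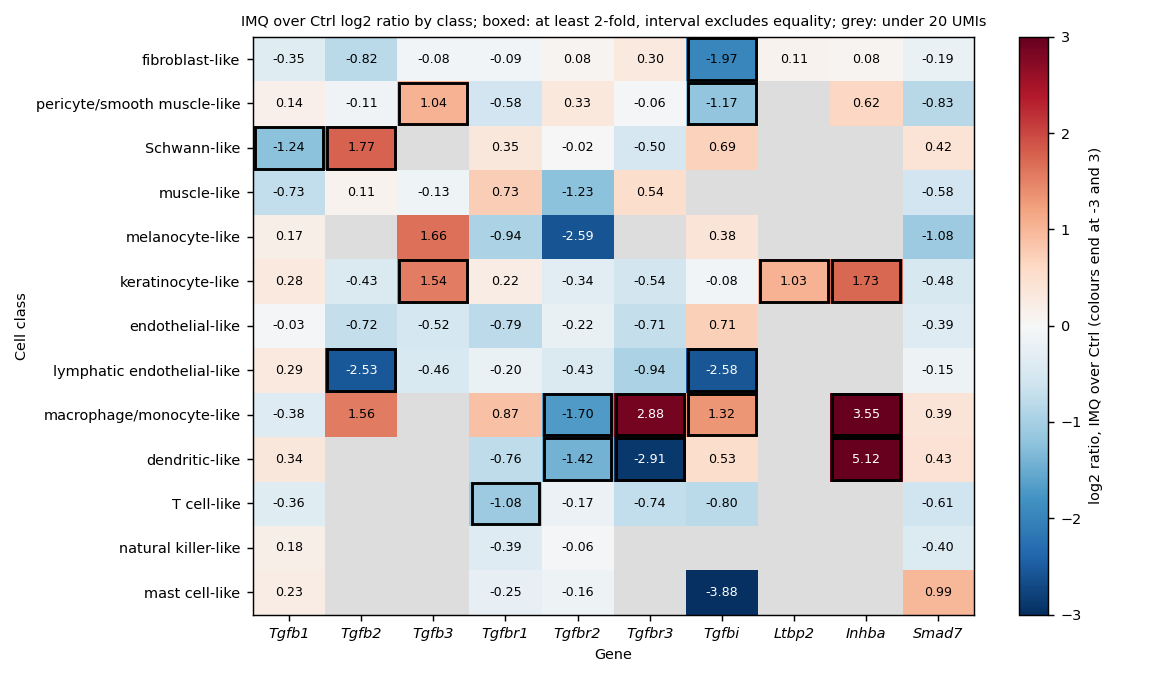
IMQ over Ctrl log2 ratio of each member (columns) in each of 13 cell classes (rows), red for higher and blue for lower in IMQ, with boxes around calls in the 9 classes where calls were made and grey where under 20 UMIs were counted. Inhba in macrophage/monocyte-like cells is drawn at its bound of 3.55, against the limit that 0 UMIs allow, and Tgfbi goes in opposite directions in fibroblast-like (-1.97) and macrophage/monocyte-like (1.32) cells.

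Among the ligands, Tgfb1 (GRCm38 chr7:25687002-25705077, plus strand), the isoform prominent in immune cells, was highest in natural killer-like cells in both libraries, at 372 CPM (328 to 421) in IMQ and 328 CPM (279 to 383) in Ctrl. Lymphatic endothelial-like cells had 259 CPM in IMQ and 212 CPM in Ctrl, and T cell-like cells had 207 CPM (188 to 227) in IMQ and 265 CPM (236 to 297) in Ctrl. In IMQ the natural killer interval lay above that of the next class, lymphatic endothelial-like cells, while in Ctrl it overlapped that of T cell-like cells. Macrophage/monocyte-like cells had 168 CPM in IMQ and 219 CPM in Ctrl, and dendritic-like cells 139 CPM in IMQ and 110 CPM in Ctrl. Structural cells held lower levels, with 31.7 CPM in IMQ and 26.1 CPM in Ctrl keratinocyte-like cells and 29.5 CPM in IMQ and 37.7 CPM in Ctrl fibroblast-like cells. Among these classes, the order from immune and lymphatic endothelial-like cells down to structural cells was thus shared by both libraries. Schwann-like cells were the exception in their ratio: 22.9 CPM in IMQ against 54.2 CPM in Ctrl, on 18 IMQ and 31 Ctrl UMIs, or 2.36-fold lower (1.28 to 4.49).

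Fibroblast-like and keratinocyte-like cells, the most numerous, together held most of the Tgfb1 counted. Fibroblast-like cells held 25.1% of all Tgfb1 UMIs in the IMQ library and 56.7% in the Ctrl library. Keratinocyte-like cells held 33.2% in IMQ and 19.6% in Ctrl, and lymphatic endothelial-like cells 8.3% in IMQ and 2.34% in Ctrl. These shares follow the numbers of cells captured as well as the levels in them, and the files do not tell dissociation losses from tissue composition.

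**Figure D2:**
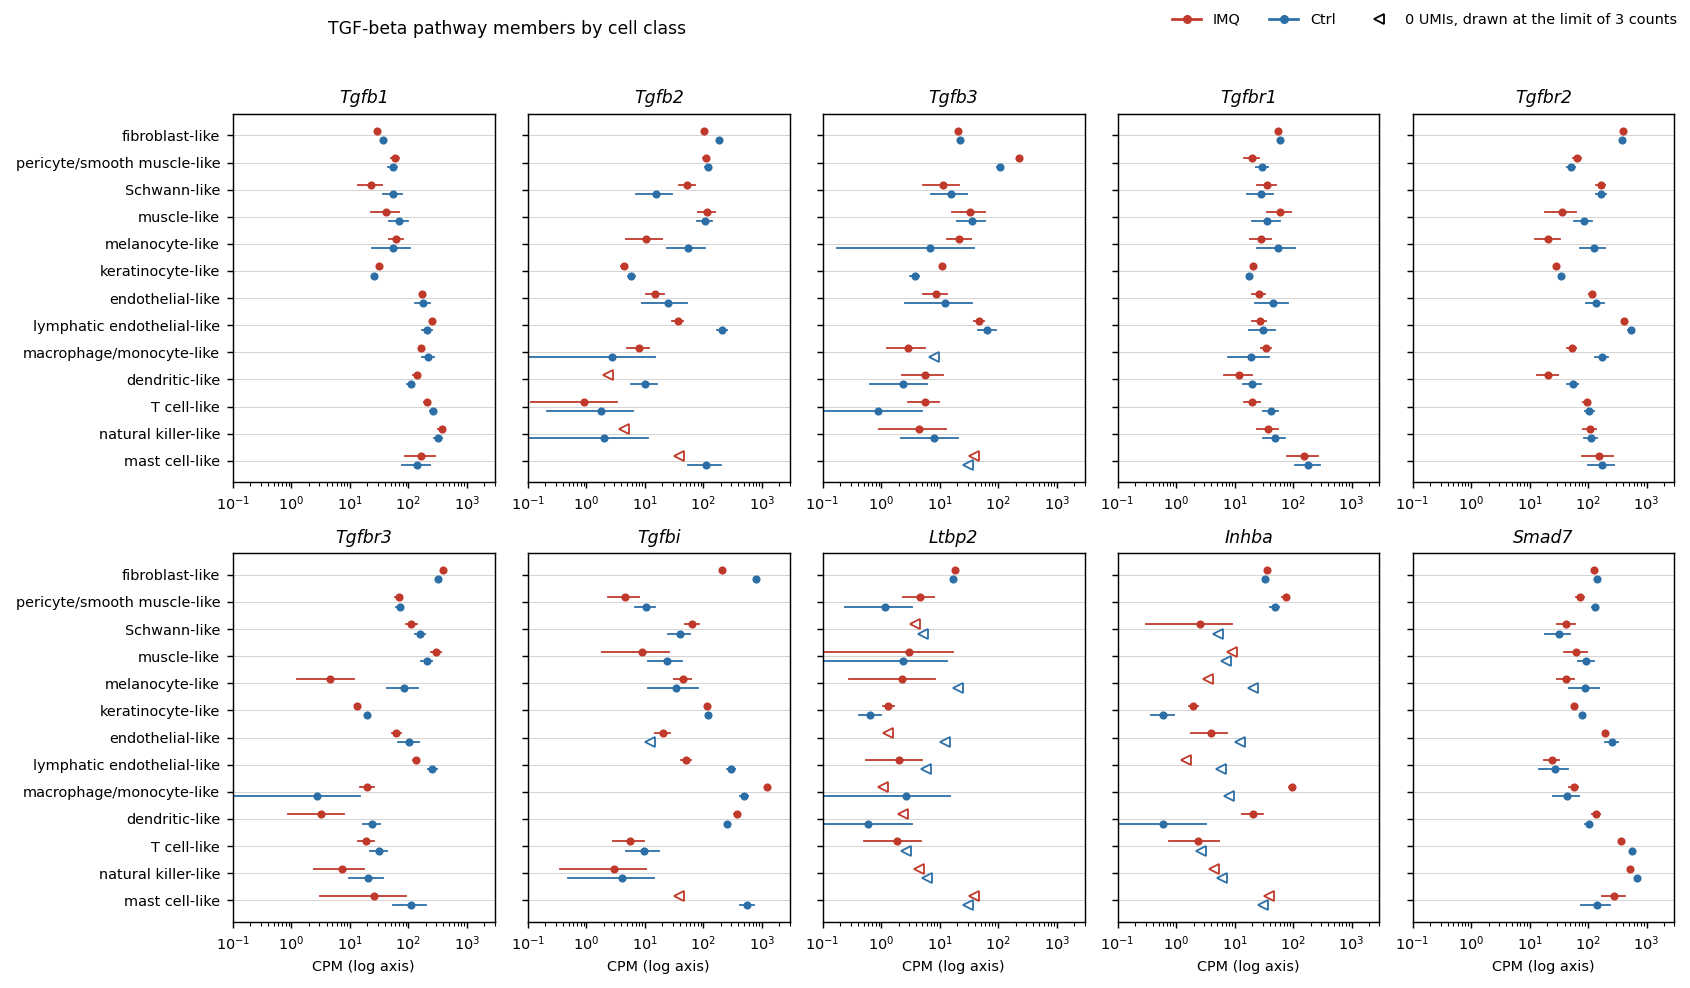
Level of each of the 10 genes (CPM, log axis) in 13 cell classes, IMQ in red and Ctrl in blue, with bars for the 95% counting interval and open triangles for 0 UMIs drawn at the limit of 3 counts. Tgfb1 and Smad7 peak in natural killer-like cells, at 372 and 527 CPM in IMQ and 328 and 696 CPM in Ctrl, and Tgfbr3 peaks in fibroblast-like cells, at 400 CPM in IMQ and 324 CPM in Ctrl.

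Tgfb2 (chr1:186622792-186705989, minus strand), the isoform that needs the co-receptor betaglycan for efficient binding, was mainly a gene of stromal cells. In Ctrl, lymphatic endothelial-like cells, described below, stood beside fibroblast-like cells at the top, with 212 CPM (174 to 255). Fibroblast-like cells had 105 CPM (102 to 108) in IMQ and 185 CPM (182 to 188) in Ctrl, 1.76-fold lower (1.71 to 1.82), short of the 2-fold rule. Pericyte/smooth muscle-like cells had 113 CPM in IMQ and 121 CPM in Ctrl, and muscle-like cells 116 CPM in IMQ and 108 CPM in Ctrl. Keratinocyte-like cells had 4.4 CPM in IMQ and 5.92 CPM in Ctrl. The difference in fibroblast-like cells therefore had no counterpart of that size in pericyte/smooth muscle-like or muscle-like cells, although the difference between classes was not tested.

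In lymphatic endothelial-like cells Tgfb2 was 36.6 CPM (28.8 to 46.0) in IMQ and 212 CPM (174 to 255) in Ctrl, on 74 IMQ and 110 Ctrl UMIs, which was 5.78-fold lower (4.27 to 7.87). A single Ctrl cell held 32 of the 110 UMIs. The summed level of 8 fibroblast markers in these cells was 533 CPM in IMQ and 8658 CPM in Ctrl, with none of the 8 at 0, and their part in the Tgfb2 difference was not tested. Without the highest cell of each library the log2 ratio was -2.18, and with cells thinned to 3000 UMIs it was -1.63, in place of -2.53. The free RNA estimate for Tgfb2 was 1.35 CPM in IMQ and 6.84 CPM in Ctrl. In Schwann-like cells the direction was the opposite, with 53.5 CPM in IMQ and 15.7 CPM in Ctrl on 42 IMQ and 9 Ctrl UMIs, 3.4-fold higher (1.63 to 7.95). The Ctrl value there stood near its free RNA estimate of 9.34 CPM, and with doublets kept the log2 ratio was 1.02 in place of 1.77.

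Tgfb3 (chr12:86056745-86079041, minus strand), an isoform associated with low-scar repair, was highest in pericyte/smooth muscle-like cells: 226 CPM (208 to 245) in IMQ and 109 CPM (97.1 to 123) in Ctrl. This was 2.06-fold higher (1.79 to 2.39), on 587 IMQ and 284 Ctrl UMIs. The call did not hold when each cell was thinned to 3000 UMIs, with a log2 ratio of 0.34, when cells were chosen by marker gates, with 0.59, or with size factors, with 0.99. After thinning, 31.1% of IMQ and 31.2% of Ctrl cells of this class had a Tgfb3 UMI. The same class held more red blood cell marker RNA in IMQ, 2394 CPM over 6 markers, than in Ctrl, 40.1 CPM, and its part in the Tgfb3 difference was not tested.

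In keratinocyte-like cells Tgfb3 was 10.9 CPM (10.1 to 11.7) in IMQ and 3.76 CPM (3.15 to 4.46) in Ctrl, 2.9-fold higher (2.41 to 3.52) on 722 IMQ and 133 Ctrl UMIs. The class was made of different clusters in the libraries. The cluster led by Krt15, Lhx2 and Sox9, genes of hair follicle stem cells, had 524 IMQ and 42 Ctrl cells, with 29.6 CPM in IMQ and 30.6 CPM in Ctrl. The cluster led by Krt14, Krt5 and Krt79 had 653 IMQ and 78 Ctrl cells, with 11.8 CPM in IMQ and 14.6 CPM in Ctrl, a ratio of 0.81 (0.494 to 1.42). Within these 2 clusters the level in IMQ was close to that in Ctrl, but the Ctrl cells were few (42 and 78) and the interval given is wide. The cluster of 608 IMQ cells led by Krt16 and Krt6b, keratins of hyperproliferative epidermis, had 1.13 CPM. The clusters found almost wholly in Ctrl had 0.81 to 4.98 CPM, so Tgfb3 was low in the clusters that dominated Ctrl. The part of the unlike clusters in the class ratio was not tested.

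**Figure D3:**
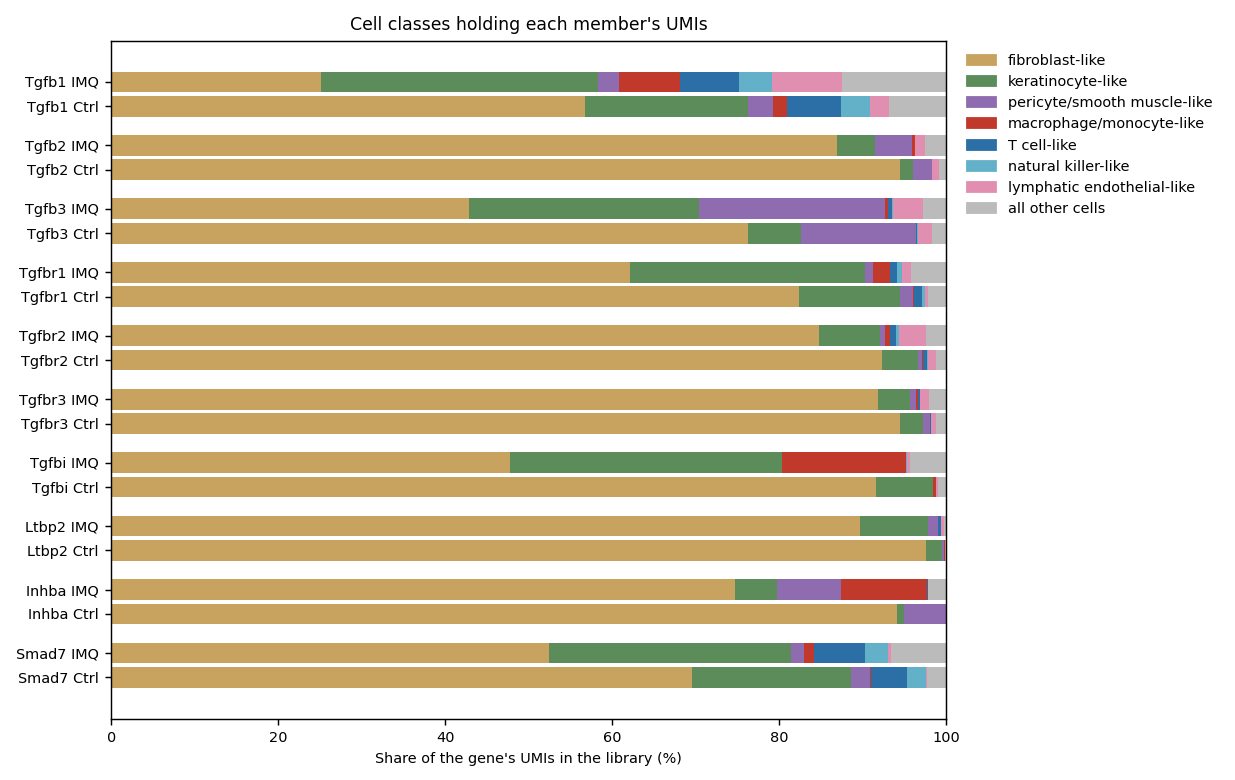
Share of each gene's UMIs in a library (horizontal axis, %) by the cell class that holds them, with the IMQ bar above the Ctrl bar for each gene. Fibroblast-like cells hold 42.9% of Tgfb3 UMIs in IMQ and 76.2% in Ctrl, and macrophage/monocyte-like cells hold 14.8% of Tgfbi UMIs in IMQ and 0.3% in Ctrl.

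Inhba encodes the subunit that forms activin A. Macrophage/monocyte-like cells had 263 Inhba UMIs in IMQ, a level of 95.1 CPM (83.9 to 107), and 0 UMIs in Ctrl. In Ctrl 3 counts would be 8.11 CPM, and the 95% interval reached 9.97 CPM. Against the floor of 3 counts the IMQ level was 11.7-fold higher, a ratio that leaves out counting error and is no 95% bound. In the alternatives the log2 ratio, or its value against 3 counts, was 2.47 to 6.63. The UMIs came from 61 of 522 IMQ cells (11.7%), with at most 31 in one cell, against 0 of 85 Ctrl cells. The free RNA estimate was 0.59 CPM in IMQ and 0.68 CPM in Ctrl, and median depth in this class was 4357 UMIs in IMQ and 4381 UMIs in Ctrl cells. As a measure of free RNA, an Inhba UMI was found in 0 of 114 natural killer-like, 0 of 175 lymphatic endothelial-like, 1 of 402 T cell-like and 2 of 181 Schwann-like IMQ cells, whose levels were 0, 0, 2.32 and 2.55 CPM. Median depths in these classes were 5188, 7067, 3943 and 3255 UMIs. Inhba was thus found in a minority of IMQ macrophage/monocyte-like cells, at a level above those of these 4 classes.

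The macrophage/monocyte-like class was divided by C1q, complement subunits made by resident macrophages. Cells with at least 3 C1q UMIs numbered 105 in IMQ and 60 in Ctrl, and cells with fewer numbered 417 in IMQ and 25 in Ctrl. Inhba had 52 UMIs in IMQ and 0 in Ctrl among the C1q-rich cells, and 211 in IMQ and 0 in Ctrl among the others. It was thus seen in IMQ cells on both sides of this division.

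Elsewhere Inhba was a gene of mesenchymal cells. Pericyte/smooth muscle-like cells had 74.2 CPM in IMQ and 48.2 CPM in Ctrl, a ratio of 1.54 (1.22 to 1.95). Fibroblast-like cells had 35.4 CPM in IMQ and 33.6 CPM in Ctrl. A small fibroblast-like subcluster of 77 IMQ and 124 Ctrl cells, led by Prlr, Slc26a7 and Pappa2, held 1459 of the 1904 IMQ UMIs and 1896 of the 2380 Ctrl UMIs. Its level was 486 CPM in IMQ and 406 CPM in Ctrl, so in both libraries most fibroblast Inhba sat in this subcluster. It was left unnamed: all 10 dermal papilla markers were detected in it, but its leading genes favoured papillary fibroblasts. Inhba was itself among its leading genes.

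Keratinocyte-like cells had a low Inhba level, 1.97 CPM (1.64 to 2.33) in IMQ and 0.59 CPM (0.368 to 0.909) in Ctrl, on 130 IMQ and 21 Ctrl UMIs, 3.31-fold higher (2.08 to 5.52). The Ctrl level equalled its free RNA estimate of 0.63 CPM within the interval, and the log2 ratio was 1.06 with marker gates and 1.07 with doublets kept, in place of 1.73. In dendritic-like cells 26 Inhba UMIs were counted in IMQ and 1 in Ctrl, a ratio of 34.7 (5.7 to 1423), but 23 of the 26 were in 1 cell. That call therefore rests on a single cell.

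Ltbp2 (chr12:84783212-84876532, minus strand) encodes a matrix protein of the latent TGF-beta binding family that does not bind latent TGF-beta itself. In fibroblast-like cells as a whole it stood at 18.1 CPM in IMQ and 16.7 CPM in Ctrl. The subcluster led by Thbs4, Col8a1 and Myoc had 66.1 CPM in IMQ and 12.4 CPM in Ctrl, 5.32-fold higher (3.86 to 7.46). Papillary-like cells of both subclusters, 301 IMQ and 1237 Ctrl cells, had 83.8 CPM in IMQ and 30.6 CPM in Ctrl, a ratio of 2.74 (2.34 to 3.2). In the papillary-like subcluster that both libraries supplied, 84.3 CPM in IMQ stood beside 74.5 CPM in Ctrl. The near-equal class level thus covered subclusters with unlike ratios. In keratinocyte-like cells Ltbp2 was 1.33 CPM (1.07 to 1.64) in IMQ and 0.65 CPM (0.413 to 0.977) in Ctrl, 2.04-fold higher (1.28 to 3.39) on 88 IMQ and 23 Ctrl UMIs, and the call was lost in 3 of the alternatives.

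Among the receptors, Tgfbr2 (chr9:116084293-116175360, minus strand), the ligand-binding kinase, was highest in lymphatic endothelial-like and fibroblast-like cells. Lymphatic endothelial-like cells had 406 CPM in IMQ and 547 CPM in Ctrl, and fibroblast-like cells had 401 CPM (396 to 406) in IMQ and 381 CPM (376 to 385) in Ctrl. Schwann-like cells had 167 CPM in IMQ and 169 CPM in Ctrl, and keratinocyte-like cells 27.9 CPM in IMQ and 35.2 CPM in Ctrl. In the cells that carried most of this receptor, the libraries differed by less than 1.5-fold. Macrophage/monocyte-like cells had 52.4 CPM (44.2 to 61.7) in IMQ and 170 CPM (131 to 218) in Ctrl, 3.25-fold lower (2.38 to 4.4) on 145 IMQ and 63 Ctrl UMIs. Among the C1q-rich cells of that class, Tgfbr2 was 91.4 CPM in IMQ and 210 CPM in Ctrl, 2.3-fold lower (1.63 to 3.24). Among the other cells it was 33.4 CPM in IMQ and 25.1 CPM in Ctrl, the Ctrl value from 2 UMIs. The lower level was thus seen within the C1q-rich cells, although for the class the log2 ratio went to -0.80, short of the rule, at Leiden resolution 0.5, in place of -1.70.

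Tgfbr1 (chr4:47353222-47414931, plus strand), the signalling kinase partner, was more even across the 9 classes with calls. Its levels there were 11.9 to 56.0 CPM in IMQ and 17.7 to 59.8 CPM in Ctrl. Fibroblast-like cells had 56.0 CPM in IMQ and 59.8 CPM in Ctrl, and keratinocyte-like cells 20.6 CPM in IMQ and 17.7 CPM in Ctrl. Mast cell-like cells, 32 in IMQ and 35 in Ctrl, stood above that range, with 153 CPM in IMQ and 181 CPM in Ctrl. Their Col1a1 level was 63.6 CPM in IMQ and 32226 CPM in Ctrl, and the part of other cells' RNA was not tested. T cell-like cells had 19.96 CPM in IMQ and 42.3 CPM in Ctrl, 2.12-fold lower (1.37 to 3.28) on 43 IMQ and 48 Ctrl UMIs. That call was lost under 3 alternatives, with log2 ratios of -0.74 to -0.87, and the change is thus near the 2-fold limit.

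Tgfbr3 (chr5:107106570-107289629, minus strand) encodes betaglycan, the co-receptor that presents TGF-beta2 to Tgfbr2. Fibroblast-like cells had 400 CPM (394 to 405) in IMQ and 324 CPM (320 to 329) in Ctrl, and muscle-like cells 299 CPM in IMQ and 206 CPM in Ctrl. Lymphatic endothelial-like cells had 134 CPM in IMQ and 258 CPM in Ctrl, 1.92-fold lower and short of the rule. Keratinocyte-like cells had 13.4 CPM in IMQ and 19.6 CPM in Ctrl. Its highest levels were thus in fibroblast-like cells in both libraries. In macrophage/monocyte-like cells 55 UMIs were counted in IMQ and 1 in Ctrl, a ratio of 7.35 (1.27 to 296). A single IMQ cell held 14 of those UMIs, and with each library clustered alone the log2 ratio turned to -0.45.

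Receptor values in dendritic-like cells came with unequal free RNA estimates, whose sources were not told apart. Tgfbr2 was 20.6 CPM in IMQ and 55.2 CPM in Ctrl, 2.68-fold lower (1.72 to 4.31), and Tgfbr3 was 3.17 CPM in IMQ and 23.7 CPM in Ctrl, 7.49-fold lower (2.71 to 28.8). The free RNA estimates were 2.37 CPM in IMQ and 32.8 CPM in Ctrl for Tgfbr2, and 2.18 CPM in IMQ and 27.3 CPM in Ctrl for Tgfbr3. The Ctrl level of Tgfbr3 was below its estimate. The summed level of 11 keratinocyte markers in these cells was 378 CPM in IMQ and 16606 CPM in Ctrl. With free RNA subtracted, the log2 ratio of Tgfbr2 was -0.49, and neither receptor is read as different here.

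Smad7, the inhibitory Smad, was highest in natural killer-like cells, at 527 CPM (473 to 584) in IMQ and 696 CPM (625 to 774) in Ctrl. T cell-like cells followed with 365 CPM in IMQ and 557 CPM in Ctrl, 1.52-fold lower. Fibroblast-like cells had 126 CPM in IMQ and 144 CPM in Ctrl, pericyte/smooth muscle-like cells 73.4 CPM in IMQ and 130 CPM in Ctrl, and keratinocyte-like cells 56.8 CPM in IMQ and 79.3 CPM in Ctrl. In each of these classes Smad7 was lower in IMQ, in none by 2-fold. Levels were higher in IMQ in 3 of the classes with calls. Macrophage/monocyte-like cells had 56.7 CPM in IMQ and 43.3 CPM in Ctrl. Dendritic-like cells had 139 CPM in IMQ and 103 CPM in Ctrl, and Schwann-like cells 42.0 CPM in IMQ and 31.4 CPM in Ctrl. Lymphatic endothelial-like cells had 24.2 CPM in IMQ and 26.9 CPM in Ctrl. Smad7 thus stood high in the same lymphoid classes as Tgfb1.

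Tgfbi encodes a secreted matrix protein that was first found as a TGF-beta-induced gene. Fibroblast-like cells had 206 CPM (202 to 210) in IMQ and 806 CPM (799 to 813) in Ctrl, 3.91-fold lower (3.83 to 3.99). After each cell was thinned to 3000 UMIs, 34.7% of IMQ and 66.8% of Ctrl fibroblast-like cells had a Tgfbi UMI, and before thinning 59.4% of IMQ and 74.7% of Ctrl cells did. The class level is a base for the subclusters below, because many fibroblast-like subclusters came almost wholly from 1 library. Over all genes measured in this class the median log2 ratio was 0.27, so the Tgfbi ratio of -1.97 lay further from the median of all genes than from 0.

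Of the fibroblast-like subclusters, 5 had at least 50 cells in each library. In the subcluster led by Gdf10, Cxcl14 and Rbp4 (544 IMQ, 412 Ctrl cells), Tgfbi was 71.0 CPM in IMQ and 376 CPM in Ctrl, 5.31-fold lower (4.65 to 6.06). In the papillary-like subcluster led by Tnc, Cyp26b1 and Aqp1 it was 224 CPM in IMQ and 615 CPM in Ctrl, 2.74-fold lower (2.53 to 2.97). In the subcluster led by Thbs4, Col8a1 and Myoc it was 378 CPM in IMQ and 718 CPM in Ctrl, 1.9-fold lower (1.77 to 2.04). The subcluster led by Tnn, Wif1 and Tagln had 30.8 CPM in IMQ and 36.2 CPM in Ctrl, 1.18-fold lower (0.854 to 1.61), an interval that includes equality. The unnamed Prlr-led subcluster had 7.32 CPM in IMQ and 22.5 CPM in Ctrl, 3.07-fold lower (1.92 to 5.1). Tgfbi was lower in IMQ in 4 of these 5 with intervals that left out equality, of which the Thbs4-led subcluster was short of the 2-fold rule.

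Subclusters found almost wholly in 1 library differed more widely. In IMQ the subcluster of 1431 cells led by Hp, Saa3 and Lcn2, acute-phase genes, had 300 CPM of Tgfbi, and the Pi16-like subcluster of 743 cells had 65.6 CPM. In Ctrl, subclusters of 1410, 1059 and 700 cells, led by Gal, by Pltp and by Igfbp2, had 1326, 1116 and 1237 CPM, and the Pi16-like subcluster of 1679 cells had 129 CPM. The 3 highest levels were therefore in subclusters with nearly no IMQ cells. Pi16-like cells of both subclusters, 777 IMQ and 1695 Ctrl cells, had 64.6 CPM in IMQ and 129 CPM in Ctrl, 1.99-fold lower (1.81 to 2.2). Papillary-like cells of both subclusters had 229 CPM in IMQ and 1020 CPM in Ctrl, 4.45-fold lower (4.14 to 4.79). With the cells of the 5 shared subclusters alone, the log2 ratio for the class was -1.53 in place of -1.97.

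Tgfb2 varied over the same subclusters. In the Gdf10-led subcluster it was 21.6 CPM in IMQ and 98.9 CPM in Ctrl, 4.58-fold lower (3.56 to 5.9), and in the Thbs4-led subcluster 51.6 CPM in IMQ and 102 CPM in Ctrl, 1.97-fold lower. In the Tnc-led papillary-like subcluster it was 118 CPM in IMQ and 125 CPM in Ctrl. In the Prlr-led subcluster it was 122 CPM in IMQ and 83.9 CPM in Ctrl, a ratio of 1.46 (1.26 to 1.68). Unlike Tgfbi, Tgfb2 thus had a higher level in IMQ in 1 of the subclusters named here, by less than 2-fold. Pi16-like cells had 66.2 CPM in IMQ and 155 CPM in Ctrl, 2.35-fold lower (2.14 to 2.58).

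**Figure D4:**
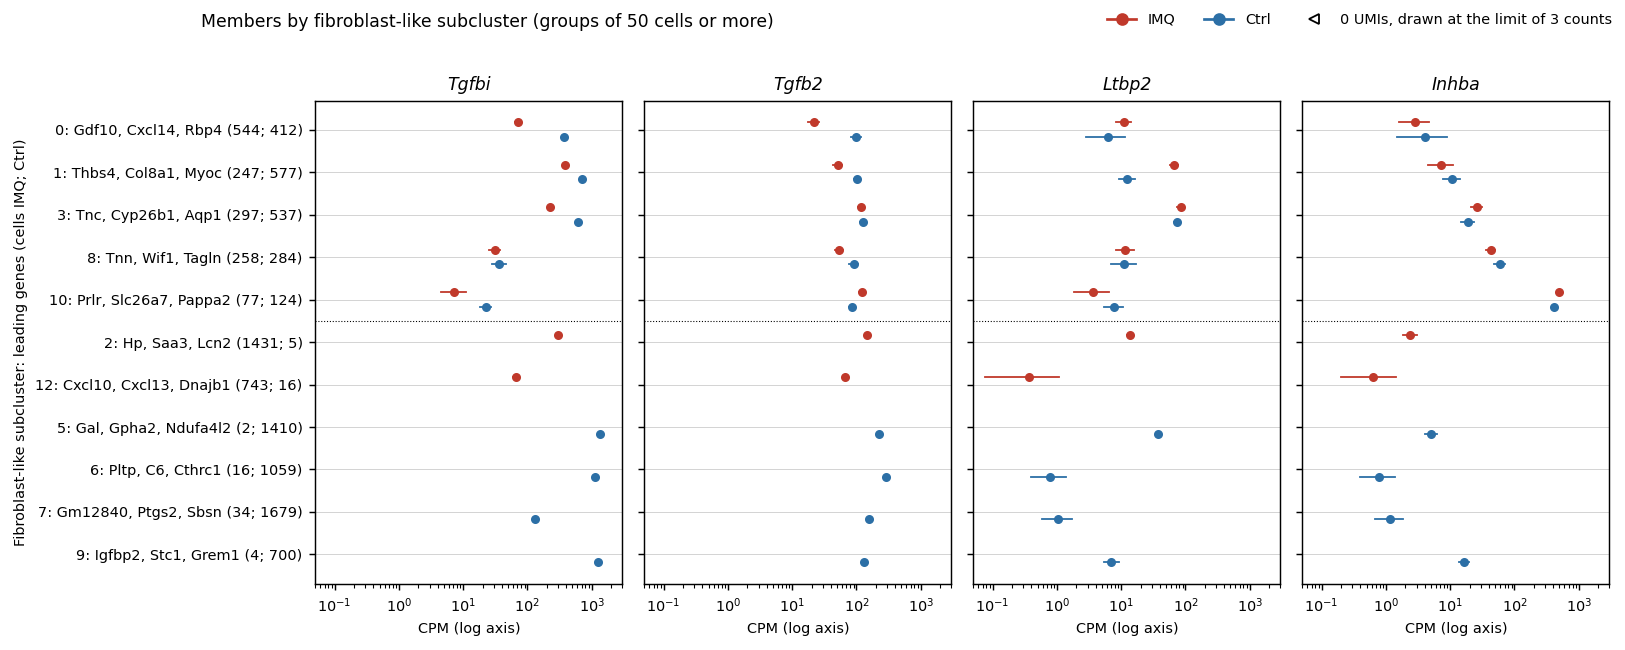
Levels of Tgfbi, Tgfb2, Ltbp2 and Inhba (CPM, log axis) in fibroblast-like subclusters named by their leading genes, IMQ in red and Ctrl in blue with 95% counting intervals, for groups of at least 50 cells. The 5 subclusters above the dotted line had such groups in both libraries; Inhba stands out in the Prlr-led subcluster, at 486 CPM in IMQ and 406 CPM in Ctrl.

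In macrophage/monocyte-like cells Tgfbi went the other way, with 1239 CPM (1198 to 1281) in IMQ and 497 CPM (428 to 575) in Ctrl, 2.49-fold higher (2.15 to 2.9) on 3428 IMQ and 184 Ctrl UMIs. Among the C1q-rich cells it was 867 CPM in IMQ and 493 CPM in Ctrl, a ratio of 1.76 (1.47 to 2.12). Among the others it was 1421 CPM in IMQ and 514 CPM in Ctrl, a ratio of 2.76 (2.03 to 3.86). Tgfbi was thus higher in IMQ on both sides of the C1q division. Neutrophil markers summed to 1089 CPM in IMQ and 219 CPM in Ctrl in this class, over 9 markers of which 6 were at 0 in Ctrl, and their part in the result was not tested.

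Dendritic-like cells had 373 CPM of Tgfbi in IMQ and 258 CPM in Ctrl, and keratinocyte-like cells 114 CPM in IMQ and 121 CPM in Ctrl. The near-equal keratinocyte level covered clusters of unlike level. The IMQ clusters led by Krt14, by Krt15 and by proliferation genes had 156, 152 and 128 CPM and the Krt16-led cluster 45.5 CPM, whereas the Ctrl clusters spanned 29.9 to 248 CPM. Lymphatic endothelial-like cells had 51.0 CPM in IMQ and 304 CPM in Ctrl, 5.97-fold lower (4.63 to 7.72) on 103 IMQ and 158 Ctrl UMIs, beside the fibroblast marker sums given above and a free RNA estimate of 30.8 CPM in Ctrl. Pericyte/smooth muscle-like cells had 4.61 CPM in IMQ and 10.4 CPM in Ctrl, both below their free RNA estimates of 14.1 CPM in IMQ and 11.8 CPM in Ctrl, and that call is not read as expression.

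The promoters of the 2 genes with the clearest contrasts, Tgfbi and Inhba, are shown from RefSeq (GRCm38.p6), from 250 bases before to 50 after each RefSeq start, 5′ to 3′ on the plus strand. In the files' build, GRCm38, Tgfbi spans chr13:56609523-56639562 and Inhba chr13:16011851-16031621, both protein coding and on the plus strand. The windows are chr13:56609336-56609635 for Tgfbi and chr13:16011601-16011900 for Inhba, and capitals mark the motif matches described after them.
Tgfbi: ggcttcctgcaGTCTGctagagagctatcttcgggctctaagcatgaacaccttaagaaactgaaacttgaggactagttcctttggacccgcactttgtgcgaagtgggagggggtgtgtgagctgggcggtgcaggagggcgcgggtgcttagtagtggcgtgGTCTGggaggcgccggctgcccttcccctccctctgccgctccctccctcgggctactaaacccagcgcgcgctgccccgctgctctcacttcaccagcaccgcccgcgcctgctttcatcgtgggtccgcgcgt
Inhba: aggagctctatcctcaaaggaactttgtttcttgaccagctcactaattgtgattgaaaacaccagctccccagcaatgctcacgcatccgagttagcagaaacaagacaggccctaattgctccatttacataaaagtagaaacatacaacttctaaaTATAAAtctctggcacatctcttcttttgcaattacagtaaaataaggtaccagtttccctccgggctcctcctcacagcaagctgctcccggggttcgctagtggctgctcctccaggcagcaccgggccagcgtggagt
Searched on both strands, the Smad-binding element CAGAC occurred 2 times in the Tgfbi window, as GTCTG 239 and 85 bases before the start, and not in the Inhba window. It occurred in 49.6% of the 32851 promoters of the table. The TATA box TATAAA occurred in the Inhba window, 91 bases before the start, and in 13.6% of promoters. The AP-1 motif TGANTCA was in neither window and in 7.81% of promoters. A match describes letters in the window and is not a bound site.

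The other genes of the pathway were taken as 5 lists of 71 genes. In fibroblast-like cells 14 of 70 measured were higher in IMQ and 4 lower, where 11.5% of all measured genes were higher and 3.9% lower, and the list median (log2) was 0.03, beside 0.27 over all genes. Of 17 latency and activation genes, 3 were higher and none was lower, beside those same 11.5% and 3.9%. Fbn2, a microfibril protein, had 78.1 CPM in IMQ and 14.0 CPM in Ctrl, and Thbs1, the thrombospondin that activates latent TGF-beta, had 407 CPM in IMQ and 90.6 CPM in Ctrl. The third, Nrros, rested on 22 IMQ and 13 Ctrl UMIs. Of 27 measured response genes, 10 were higher and 2 were lower, again beside 11.5% higher and 3.9% lower of all genes.

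Among those response genes Tnc, the matrix protein tenascin-C, had 178 CPM in IMQ and 14.5 CPM in Ctrl, 12.3-fold higher (11.5 to 13.1). Timp1, a metalloproteinase inhibitor, had 635 CPM in IMQ and 55.0 CPM in Ctrl, 11.6-fold higher (11.2 to 11.95), and the contractile gene Acta2 81.4 CPM in IMQ and 17.8 CPM in Ctrl. Ctgf, a matricellular gene, had 209 CPM in IMQ and 39.5 CPM in Ctrl. The 2 lower genes, named after their values were seen, were Col1a1 and Col1a2, the chains of type I collagen. Col1a1 had 11769 CPM in IMQ and 45522 CPM in Ctrl, 3.87-fold lower, and Col1a2 was 3.72-fold lower. Of the other 3 collagen genes on the list, Col3a1 and Col5a1 were not called, with log2 ratios of -0.70 and -0.54, and Col12a1 was higher, with 107 CPM in IMQ and 25.3 CPM in Ctrl. The response list thus held genes of both directions, its collagens included. The remaining calls were the activin-type receptor gene Acvr1c (0.56 CPM in IMQ, 3.34 CPM in Ctrl) and the inhibin alpha gene Inha (1.3 CPM in IMQ, 2.89 CPM in Ctrl), both lower, and the Smad inhibitor Ldlrad4 (24.0 CPM in IMQ, 9.69 CPM in Ctrl), higher. Acta2, Col1a1 and Col1a2 were also markers used to name cells. Many fibroblast-like subclusters came almost wholly from 1 library, and the class ratios of these pathway genes were not separated by subcluster. Col1a1 and Col1a2 were among the leading genes of the Gal-led (2 IMQ, 1410 Ctrl cells) and Pltp-led (16 IMQ, 1059 Ctrl cells) subclusters.

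In keratinocyte-like cells 15 of 69 were higher and 13 lower, beside 11.8% higher and 11.2% lower of all measured genes, and the list median (log2) was 0.02 beside 0.03 over all genes. Ctgf had 57.3 CPM in IMQ and 6.06 CPM in Ctrl, 9.46-fold higher (8.24 to 10.9). Itgb8, an integrin subunit that activates latent TGF-beta, had 36.7 CPM in IMQ and 6.65 CPM in Ctrl, 5.52-fold higher (4.82 to 6.34). The inhibitory Smad gene Smad6 had 4.75 CPM in IMQ and 1.53 CPM in Ctrl, and the activin subunit gene Inhbb 27.3 CPM in IMQ and 11.3 CPM in Ctrl. Fbn2 was higher on 77 IMQ and 9 Ctrl UMIs, and Inha on 101 IMQ and 23 Ctrl UMIs. The 3 lower latency and activation genes were Itgb5, Itgb3 and Fbn1. Itgb5, an integrin subunit, had 22.5 CPM in IMQ and 46.2 CPM in Ctrl, while Itgb3 and Fbn1 in Ctrl stood at or below their free RNA estimates. The list thus had calls in both directions, and, with most clusters of the class almost wholly from 1 library, these class ratios were not separated by cluster. Of the lower response genes, Col1a1 had 88.0 CPM in IMQ and 909 CPM in Ctrl, with free RNA estimates of 88.0 CPM in IMQ and 821 CPM in Ctrl, and Col1a2 and Col3a1 likewise stood near their estimates. Col1a1 and Col1a2 were also among the fibroblast markers that went into the estimate, so their closeness to it is no separate check. These collagen values are not read as keratinocyte expression.

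In macrophage/monocyte-like cells 6 of 46 were higher and 5 lower, beside 6.35% higher and 9.95% lower of all measured genes, and the list median (log2) was 0.18 beside -0.07 over all genes. Thbs1 had 887 CPM in IMQ and 54.1 CPM in Ctrl, 16.4-fold higher (10.6 to 26.9) on 2455 IMQ and 20 Ctrl UMIs. Skil, a Smad corepressor induced by TGF-beta, had 200 CPM in IMQ and 83.8 CPM in Ctrl, and the related Ski 41.2 CPM in IMQ and 86.5 CPM in Ctrl. Nrros, which tethers latent TGF-beta on myeloid cells, had 84.9 CPM in IMQ and 211 CPM in Ctrl, 2.48-fold lower (1.9 to 3.22). Bambi, a decoy receptor, had 15.9 CPM in IMQ and 116 CPM in Ctrl, 7.31-fold lower (4.69 to 11.4) on 44 IMQ and 43 Ctrl UMIs. Of the other called latency and activation genes, the membrane protease gene Mmp14 had 79.5 CPM in IMQ and 27.0 CPM in Ctrl, and Plau, the urokinase gene, 20.2 CPM in IMQ and 51.4 CPM in Ctrl. The calls of that list thus went in both directions, with Thbs1 and Mmp14 higher and Nrros and Plau lower. Of the response genes, Bhlhe40, a transcriptional repressor, had 96.1 CPM in IMQ and 27.0 CPM in Ctrl, and the contractile gene Tagln 20.6 CPM in IMQ and 51.4 CPM in Ctrl. Timp1 had 71 UMIs in IMQ and 0 in Ctrl, and Cyr61 in Ctrl stood at its free RNA estimate. The 2 libraries held unlike shares of C1q-rich cells in this class. These ratios are for the whole class and were not separated by C1q.

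**Figure D5:**
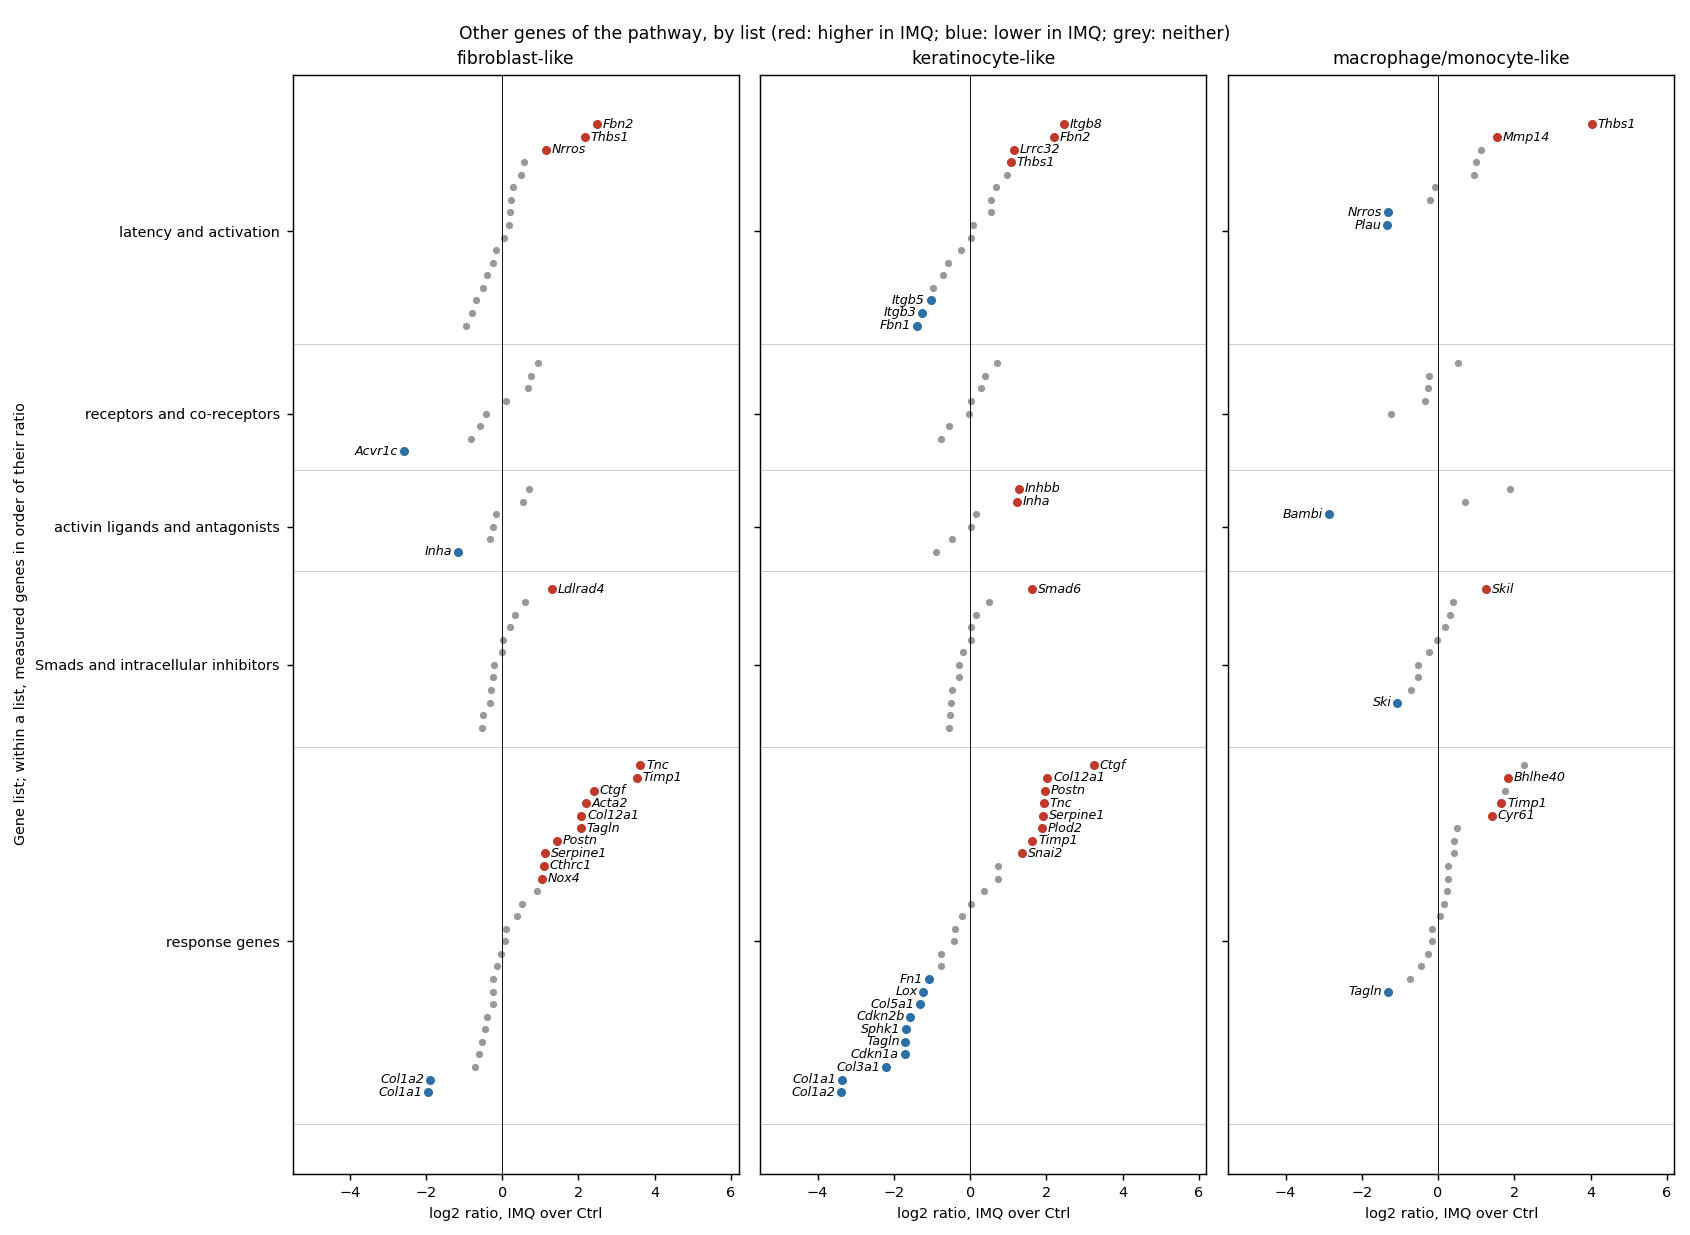
IMQ over Ctrl log2 ratio (horizontal axis) of the other pathway genes in fibroblast-like, keratinocyte-like and macrophage/monocyte-like cells, 1 row per measured gene within its list, red for higher, blue for lower and grey for neither. In fibroblast-like cells 10 response genes are higher (11.5% of all genes were) and Col1a1 and Col1a2 are lower, and in macrophage/monocyte-like cells Thbs1 lies furthest right.

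The genes most alike to a member across the classes were taken by Pearson r of log levels over 26 class-by-library points, among 11576 genes. These points share libraries and depth, and r is a description. For Tgfb1 these were Ptpn18 (r = 0.91), AI467606 (r = 0.90) and Hhex (r = 0.89), for Tgfb2 Lamb2, Rbms3 and Rhoj (r = 0.93, 0.93 and 0.92), and for Tgfbr3 Adamtsl1, Cdkn1c and Serping1 (r = 0.89, 0.88 and 0.87). Tgfbi was most like Ctsh (r = 0.86), Ltbp2 most like Fbn2 (r = 0.81) and Inhba most like Cxcl13 (r = 0.79). For Tgfbr1 and Tgfbr2 the best r was 0.77 and 0.75, lower than for the other 8 genes.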

How the data were processed

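Droplet-based single-cell RNA-seq counts were used from 2 libraries of mouse dorsal skin, 1 per group. The deposited files hold whole-number UMI counts per gene and cell barcode. Per the file headers they were written by Cell Ranger 5.0.0, while the submitters' processing notes name Cell Ranger 3.0.2, Seurat 2.0 and mm10; which version made the counts is not given in the sources used here. Every deposited barcode had at least 500 UMIs.

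Cells had to have at least 200 genes and no more than 10% mitochondrial UMIs, and Scrublet calls were taken out in each library. Both libraries were normalised to 10000 counts, clustered together on 2000 variable genes and 30 components (Scanpy 1.11.5, Leiden resolution 1, 15 neighbours) and named by markers (201 listed, 3 not found). The members, and the pathway genes that were not markers, were kept out of the variable genes. Fibroblast-like cells were clustered again at resolution 0.5. Counts were summed per class and library. Levels have exact Poisson intervals and ratios exact conditional binomial intervals, which cover counting error only. A count of 0 was set to 3 counts for lower bounds. Free RNA in a class was estimated as the median, over markers of other lineages with at least 50 CPM in the whole library, of their level in the class relative to the library.

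The members and lists were chosen with earlier results of these data known. Named pathway genes are up to 4 per list with the largest ratios past the rule, and further genes were chosen after their values were seen. So were the C1q division at 3 UMIs and the pooling of subclusters by name. Promoters matched for 7 of 10 members. With 1 library per group no test across samples was made.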

Additional observations from a re-analysis of the deposited data

Results flagged for a closer look

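Some members had ratios past the rule in opposite directions in different classes, and the difference between classes was not tested, since each group has 1 library. The Tgfbi log2 ratio was -1.97 in fibroblast-like, -2.58 in lymphatic endothelial-like and -1.17 in pericyte/smooth muscle-like cells, against 1.32 in macrophage/monocyte-like cells. The pericyte/smooth muscle-like levels of Tgfbi were below their free RNA estimates in both libraries and are not read as expression. The Tgfb2 log2 ratio was 1.77 in Schwann-like cells and -2.53 in lymphatic endothelial-like cells. The Tgfbr3 log2 ratio was -2.91 in dendritic-like cells and 2.88 in macrophage/monocyte-like cells. Neither Tgfbr3 value is read as a difference: the dendritic-like Ctrl level was below its free RNA estimate, and the macrophage/monocyte-like ratio rests on 1 Ctrl UMI and was -0.45 with each library clustered alone.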

How the results depend on the processing

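No paired analysis was possible because each group has 1 library. The count of members lower in fibroblast-like cells was 1 and became 2 with size factors and 2 with a fold of 1.5; the added gene was Tgfb2, with a log2 ratio of -0.82 (-1.09 with size factors). In keratinocyte-like cells the count of lower members became 1 with doublets kept, the added gene being Tgfb2 at -1.22, and the count of higher members became 2 in 4 alternatives. The direction turned for Tgfbr3 in dendritic-like cells (0.79 at Leiden resolution 2, 0.19 with doublets kept), for Inhba in dendritic-like cells (-0.80 with marker gates) and for Tgfbr3 in macrophage/monocyte-like cells (-0.45 with each library clustered alone). The cause was not tested. Tgfbi in fibroblast-like cells ranged between -1.53 in shared subclusters and -2.24 with size factors. Of the member ratios in this class, 9 were classed as moved and 1 as the same with shared subclusters alone. Over all classes, 24 ratios moved and 33 stayed the same with cells thinned to 3000 UMIs. With doublets kept, 15 moved, 1 reversed and 53 stayed the same. Without the highest cell of each gene, 66 stayed the same. Dendritic-like cells could not be had at resolution 0.5 or with each library alone, nor natural killer-like cells at 0.5. Genes with few UMIs, among them Ltbp2 and Inhba outside the classes named, are limited by depth.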
